A study of Mus musculus with 96 samples.

Results

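A set of 4 mouse genes was followed here as candidate hosts of an inserted reprogramming transgene: Neto2, Pparg, Sp3 and Gt(ROSA)26Sor. They were taken by name from a table of 56941 genes, and all 4 have a row covering all 96 libraries. Sp3 had counts in every library; Neto2 was at 0 in kidney 5 and 7, liver 7 and 8 and small intestine 6, and Pparg and Gt(ROSA)26Sor were at 0 in small intestine 6. The study sequenced RNA of 7 tissues from mice aged 2 months, with 15 libraries each of brain, kidney, liver, skeletal muscle and small intestine, 14 of heart and 7 of spleen. The labels describe 4 strains built for inducible reprogramming, 4Fk, 4Fj, 4FsB and 4FsA, and WT mice, with 3 samples for most pairs of tissue and genotype; spleen came from 4FsA, 4Fj (1 sample) and WT only. They name no insertion site, promoter or inducing agent for any strain, and the count columns carry a tissue code and a running number but no genotype, so that no strain could be compared with WT. Libraries are therefore named by tissue and running number, and a tissue group mixes all its genotypes.

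Reprogrammable mice carry a cassette of the factors Oct4 (gene Pou5f1), Sox2, Klf4 and Myc under a promoter that a drug-controlled activator switches on. Such cassettes land in or are targeted to host genes, and an insertion can interrupt the host gene or place it next to a strong promoter. In published inducible lines, factor cassettes have been mapped to Neto2 and to Pparg, and Gt(ROSA)26Sor, known as Rosa26, is the usual home of the activator. Neto2 encodes a membrane protein that is an auxiliary subunit of kainate glutamate receptors and binds the neuronal chloride transporter KCC2. Pparg encodes a nuclear receptor that drives fat cell formation and lipid storage. Sp3 encodes a zinc finger factor that binds GC boxes in the promoters of many widely expressed genes. Gt(ROSA)26Sor is a noncoding gene transcribed in most tissues.

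The start regions of the 3 protein-coding candidates are shown because they are the sequence context in which each host gene is transcribed, and because Sp3 itself binds the GC box marked in capitals (GGGCGG, or CCGCCC on the other strand). Each sequence runs from 250 bases before to 50 bases after a RefSeq start on the gene's own strand, in GRCm38.p6. The lines show Neto2 at chr8:85700875-85701174 (minus strand), the most upstream and the most downstream of 3 Pparg starts at chr6:115360894-115361193 and chr6:115421816-115422115 (plus strand), and the start of Sp3 with most GC boxes at chr2:72979232-72979531 (minus strand).
Neto2: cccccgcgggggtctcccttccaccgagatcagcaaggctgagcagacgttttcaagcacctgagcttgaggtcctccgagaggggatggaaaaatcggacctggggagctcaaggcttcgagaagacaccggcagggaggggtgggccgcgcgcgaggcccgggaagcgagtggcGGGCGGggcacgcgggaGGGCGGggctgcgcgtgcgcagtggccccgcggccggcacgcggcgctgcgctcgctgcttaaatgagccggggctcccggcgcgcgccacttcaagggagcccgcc
Pparg, upstream start: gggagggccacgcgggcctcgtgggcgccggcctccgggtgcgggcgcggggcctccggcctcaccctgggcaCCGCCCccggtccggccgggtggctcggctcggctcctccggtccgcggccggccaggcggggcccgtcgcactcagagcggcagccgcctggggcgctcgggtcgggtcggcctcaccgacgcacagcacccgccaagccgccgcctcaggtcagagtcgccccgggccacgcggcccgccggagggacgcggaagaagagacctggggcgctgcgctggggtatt
Pparg, downstream start: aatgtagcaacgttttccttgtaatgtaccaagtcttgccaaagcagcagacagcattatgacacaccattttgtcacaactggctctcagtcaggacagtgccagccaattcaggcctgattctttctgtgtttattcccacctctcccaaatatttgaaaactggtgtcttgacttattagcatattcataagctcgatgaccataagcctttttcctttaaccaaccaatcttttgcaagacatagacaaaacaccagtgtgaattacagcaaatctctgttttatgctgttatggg
Sp3: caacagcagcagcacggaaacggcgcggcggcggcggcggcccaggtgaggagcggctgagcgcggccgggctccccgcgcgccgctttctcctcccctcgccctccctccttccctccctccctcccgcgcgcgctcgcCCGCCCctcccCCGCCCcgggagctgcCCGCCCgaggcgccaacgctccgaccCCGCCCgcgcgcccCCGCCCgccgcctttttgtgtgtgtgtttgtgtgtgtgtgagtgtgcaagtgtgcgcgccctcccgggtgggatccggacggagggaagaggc

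The Neto2 region held 36 CpG pairs and 2 GC boxes, and the Sp3 region held 42 CpG pairs and 5 GC boxes. The upstream Pparg region held 44 CpG pairs and 1 GC box, against 2 CpG pairs and 0 GC boxes at the downstream start. The median over 32851 mouse promoters of the same length was 7 CpG pairs, and 35.7% of them held a GC box on either strand. RefSeq gave 1 more start for Neto2 with 0 CpG pairs, 1 more for Sp3 with 29 and 1 more for Pparg with 13. These starts held 0, 2 and 2 GC boxes in that order. The Sp3 region printed was picked for its GC boxes and the Pparg regions by position, so their GC box counts cannot be compared. A pair of other motifs was searched on both strands: CCAAT was in 37.4% of all promoters and TATAAA in 13.6%, and neither was in the Neto2, Sp3 or upstream Pparg regions printed, while the downstream Pparg region held 2 matches to CCAAT. The starts not printed each held 1 match to CCAAT, and that of Pparg also held 1 match to TATAAA. All these matches describe letters in a window and not binding.

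Library totals ran from 6624474 to 17882603 estimated counts. Values are counts per 1000000 counts of the library (CPM), and 3 counts, the limit that a count of 0 allows, correspond to 0.168 to 0.453 CPM; these limits cover counting error only. The share of mitochondrially encoded counts ran from 2.05% to 78.8%. Over 50% was reached in 2 small intestine libraries, number 5 (62.3%) and number 6 (78.8%, with 9569 genes detected). The 4 defining markers of each labelled tissue were all higher in that tissue than in the other 6. Oct4 transcript (Pou5f1) was at 1 CPM or more in 35 of 96 libraries: 3 brain, 8 heart, 6 kidney, 6 liver, 2 skeletal muscle, 8 small intestine and 2 spleen. In these whole-tissue samples, fewer cells of a type and less RNA per cell cannot be told apart.

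**Figure D1:**
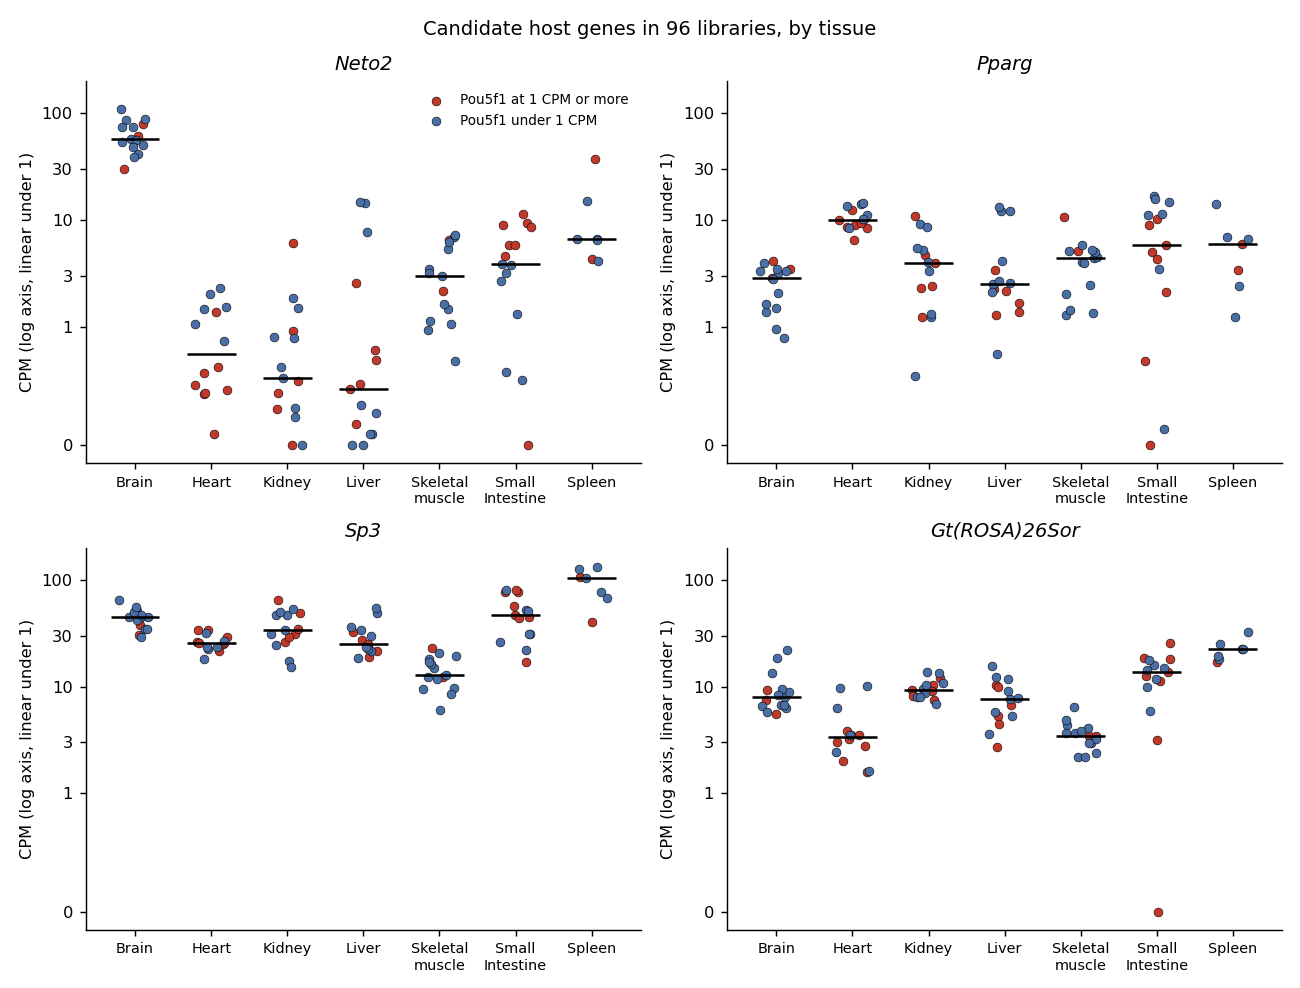
CPM of each host gene (vertical axis, logarithmic above 1 and linear below) in every library, by tissue on the horizontal axis; each point is a library, red where Pou5f1 is at 1 CPM or more and blue where it is lower, and the black bar is the tissue's median. Neto2 sits at 29.8 to 110 CPM in brain and at or below 37.2 CPM elsewhere, and Sp3 and Gt(ROSA)26Sor are highest in spleen.

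Across tissues, Neto2 was a brain gene with low levels elsewhere, Pparg was highest in heart, and Sp3 and Gt(ROSA)26Sor were found everywhere with the highest medians in spleen. Each tissue was compared with the mean of the other 6 in a fit over 20100 genes (edgeR quasi-likelihood test with Benjamini-Hochberg adjustment, threshold 0.05). Of 28 member comparisons, 14 passed. Tissue differences are common among all genes: the share that passed was 72.9% in brain, 57.4% in heart, 53.7% in kidney, 60.9% in liver, 64.8% in skeletal muscle, 62.3% in small intestine and 56% in spleen. A share of 14 in 28 is therefore no more than that of genes at large. Between pairs of tissues, 50 of 84 member comparisons passed (14 for Neto2, 12 for Pparg, 13 for Sp3 and 11 for Gt(ROSA)26Sor, of 21 each), while 62.7% of all gene comparisons passed, from 48.6% to 74.8% over the 21 pairs. The labels do not tie libraries to animals, so libraries of different tissues may share a mouse, and the p-values measure the spread between these libraries.

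Neto2, the kainate receptor subunit, had a lowest, median and highest level of 29.8, 57.8 and 110 CPM in brain. The medians elsewhere were 6.66 CPM in spleen, 3.83 CPM in small intestine, 3.01 CPM in skeletal muscle, 0.77 CPM in heart, 0.567 CPM in kidney and 0.472 CPM in liver. All 15 brain libraries except number 8 (29.8 CPM) lay above every library of other tissues, the nearest being spleen library 4 at 37.2 CPM. Neto2 rose by a log2 fold change of 3.99 (SE 0.327, edgeR adjusted p = 2.77e-20) in brain over the other 6 tissues. It fell by 2.12 on the log2 scale in heart (SE 0.481, edgeR adjusted p = 9.26e-05) and by 2.67 in kidney (SE 0.485, edgeR adjusted p = 1.57e-06). The liver value, -0.35 (SE 0.408, edgeR adjusted p = 0.482), did not pass, although liver has the lowest median. The fit compares mean levels, and 3 liver libraries were high. Without the 5 libraries that stand apart for Neto2, described further on, the liver value was -2.68, against -0.35 with them. That of skeletal muscle was 1.11, against 0.49 with them (edgeR adjusted p = 0.259). Those libraries were left out because of their own Neto2 levels, so the changed values describe their weight and are no test.

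In the order of medians, brain differed from spleen (log2 difference 2.80, SE 0.716, edgeR adjusted p = 0.000389) and skeletal muscle from heart (2.23, SE 0.55, edgeR adjusted p = 0.000407). Spleen and small intestine, small intestine and skeletal muscle, and heart and kidney did not differ beyond their spread (edgeR adjusted p = 0.358, 0.413 and 0.485). Kidney was below liver in the fit (-1.99, SE 0.538, edgeR adjusted p = 0.00117), the reverse of their medians.

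The genes that work with Neto2 were also higher in brain. All 7 listed partners, which are Neto1, the kainate receptor subunits Grik1 to Grik5 and the KCC2 gene Slc12a5, passed there, where 38.8% of all genes rose, with a median log2 fold change of 7.84, against -0.03 over all genes tested. Grik2 rose by 8.68 (SE 0.334, edgeR adjusted p = 5.50e-43) and Slc12a5 by 7.84 (SE 0.224, edgeR adjusted p = 4.26e-53). In kidney, 0 of the 7 rose and 5 fell, where 26.7% of all genes fell.

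Pparg, the fat cell receptor gene, had tissue medians between 2.53 and 10 CPM, and the ranges of neighbouring tissues in that order overlapped. Its lowest, median and highest levels were 6.44, 10 and 14.4 CPM in heart. The medians were 6.01 CPM in spleen, 5.77 CPM in small intestine, 4.36 CPM in skeletal muscle, 3.98 CPM in kidney, 2.85 CPM in brain and 2.53 CPM in liver. Heart was higher than the other 6 tissues by 1.59 on the log2 scale (SE 0.259, edgeR adjusted p = 1.08e-07) and small intestine by 0.61 (SE 0.269, edgeR adjusted p = 0.0432), a call lost with DESeq2 size factors (edgeR adjusted p = 0.0967), with DESeq2's own test (adjusted p = 0.0863) and without spleen library 8 (edgeR adjusted p = 0.0539). Brain was lower by a log2 value of -1.60 (SE 0.32, edgeR adjusted p = 6.05e-06). The liver value of 0.07 (edgeR adjusted p = 0.882) turned to -0.78 without the 3 liver libraries that stand apart for Pparg. They were left out because of their own Pparg levels, so -0.78 carries no test.

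In the order of Pparg medians, heart exceeded spleen (log2 difference 1.83, SE 0.503, edgeR adjusted p = 0.00112). Spleen and small intestine (edgeR adjusted p = 0.0725) and small intestine and skeletal muscle (0.823) did not differ beyond their spread. The fit, which uses TMM factors, put spleen below small intestine (-0.99, SE 0.477), the reverse of their medians on library totals. Against the other 6 tissues, spleen was at -0.54 (SE 0.412, edgeR adjusted p = 0.268), so its second place by median was not seen in the fit. Skeletal muscle exceeded kidney (0.95, edgeR adjusted p = 0.0207), kidney exceeded brain (0.84, edgeR adjusted p = 0.0376), and brain was below liver in the fit (-1.43, edgeR adjusted p = 0.000423).

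Genes that PPAR gamma is known to control were low in brain, as Pparg was in the fit, but did not follow the Pparg order in heart and kidney. Of 13 listed targets, 12 rose and 0 fell in kidney (26.9% of all genes rose there), 9 rose and 0 fell in skeletal muscle (29.5%), 6 rose and 4 fell in heart (27% and 30.4%), and 0 rose and 12 fell in brain (38.8% and 34%). The median log2 fold change of the 13 was 2.67 in kidney, 2.01 in skeletal muscle, 0.11 in heart and -5.69 in brain, against -0.13, -0.31, -0.22 and -0.03 over all genes tested. In heart, the fatty acid transporter gene Cd36 rose by 5.15 (SE 0.24, edgeR adjusted p = 5.30e-36) and the lipase gene Lpl by 6.02 (SE 0.263, edgeR adjusted p = 3.29e-38). Of 11 partners and relatives such as the RXR receptors and coactivators, 6 rose and 1 fell in heart, with the coactivator gene Ppargc1a at 2.01 (SE 0.272, edgeR adjusted p = 4.87e-10). Rxra, the obligate partner receptor, was at -0.09 in heart (edgeR adjusted p = 0.785) and fell by 2.24 in brain (SE 0.241, edgeR adjusted p = 2.54e-14).

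Markers of fat cells moved with the listed targets in kidney, skeletal muscle and brain. The lists share Adipoq, Plin1, Cidec and Fabp4, so part of that likeness is built in. The summed level of 8 adipocyte markers ran from 33.6 to 1968 CPM in kidney, 296 to 3594 CPM in skeletal muscle, 17.3 to 835 CPM in small intestine and 0.779 to 3.81 CPM in brain. All 8 rose in kidney and in skeletal muscle and all 8 fell in brain (26.9%, 29.5% and 34% of all genes). In heart, where Pparg was highest, 1 rose and 3 fell (27% and 30.4%), and in liver 1 rose and 5 fell (29.9% and 31%). In small intestine 6 rose and 0 fell (32.3% and 30%), and in spleen 2 rose and 0 fell (29.3% and 26.7%). Among kidney libraries the highest Pparg levels were 10.8 CPM in number 13, 9.21 CPM in number 1 and 8.57 CPM in number 10, where Adipoq, the fat cell hormone gene, was at 55.9, 128 and 25.5 CPM. The lowest Pparg level in kidney, 0.586 CPM in number 9, came with an Adipoq level of 0 and the lowest marker sum, 33.6 CPM. The part of fat tissue in the Pparg levels was not tested.

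**Figure D2:**
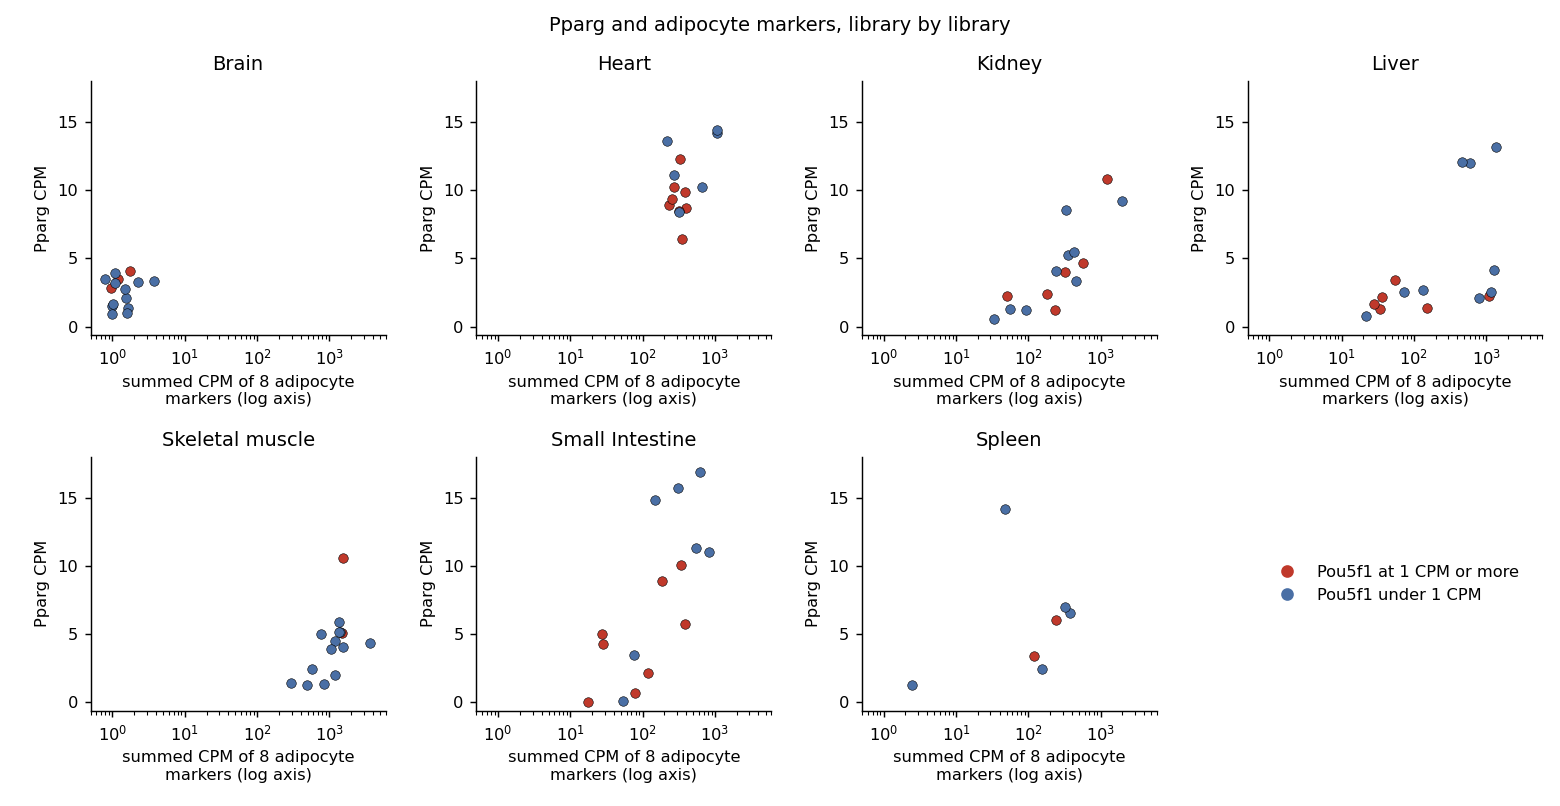
Pparg CPM (vertical axis) against the summed CPM of 8 adipocyte markers (horizontal axis, logarithmic) in each library, a panel per tissue; red points have Pou5f1 at 1 CPM or more and blue points less. In kidney the library with the lowest marker sum, 33.6 CPM, also has the lowest Pparg, 0.586 CPM; in brain all sums are at or below 3.81 CPM.

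Sp3 had a lowest, median and highest level of 40.6, 105 and 131 CPM in spleen. The medians were 46.7 CPM in small intestine, 44.8 CPM in brain, 33.6 CPM in kidney, 25.5 CPM in heart, 24.9 CPM in liver and 12.8 CPM in skeletal muscle. No library was below 5.99 CPM. Sp3 was higher than in the other 6 tissues by 0.73 in spleen (SE 0.167, edgeR adjusted p = 0.000104) and by 0.66 in small intestine (SE 0.124, edgeR adjusted p = 2.56e-06). It was lower in skeletal muscle, at -0.68 (SE 0.137, edgeR adjusted p = 8.71e-06). The kidney value, -0.31 (SE 0.133, edgeR adjusted p = 0.044), passed only narrowly and was lost in 9 of 12 other settings.

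The Sp3 tissue order is sensitive to how libraries are scaled. The median in spleen was 53.5 CPM with TMM factors, against 105 CPM on library totals, and that in skeletal muscle was 22.3 CPM against 12.8 CPM. In the fit, which uses TMM factors, spleen and small intestine did not differ beyond their spread (log2 difference 0.07, SE 0.209, edgeR adjusted p = 0.819), nor did brain and kidney, kidney and heart, or heart and liver (edgeR adjusted p = 0.734, 0.697 and 0.296). Small intestine exceeded brain (0.76, SE 0.168, edgeR adjusted p = 3.87e-05) and liver exceeded skeletal muscle (0.62, SE 0.169, edgeR adjusted p = 0.000932).

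Of the 8 other Sp family genes, 5 rose and 1 fell in spleen (29.3% and 26.7% of all genes). Sp1, the closest relative in function, rose there by 1.31 (SE 0.191, edgeR adjusted p = 5.29e-09) and Sp4 by 1.33 (SE 0.272, edgeR adjusted p = 1.68e-05). In brain 4 rose and 2 fell (38.8% and 34% of all genes), and Sp1 fell by 1.56 (SE 0.178, edgeR adjusted p = 2.82e-13). The antisense gene Sp3os overlaps Sp3, and whether counting used strand is not given in the sources used here, so reads of the pair cannot be told apart.

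Gt(ROSA)26Sor had a lowest, median and highest level of 16.9, 22.7 and 32.8 CPM in spleen. The medians were 13.8 CPM in small intestine, 9.36 CPM in kidney, 7.96 CPM in brain, 7.59 CPM in liver, 3.45 CPM in skeletal muscle and 3.38 CPM in heart. It was above 1 CPM in every library except small intestine number 6, where the count was 0, which allows up to 0.209 CPM. The gene rose by 0.81 in spleen (SE 0.253, edgeR adjusted p = 0.00448) and by 0.65 in small intestine (SE 0.189, edgeR adjusted p = 0.00175). It fell by 0.92 in heart (SE 0.221, edgeR adjusted p = 0.000225) and by 0.46 in skeletal muscle (SE 0.208, edgeR adjusted p = 0.0464). The skeletal muscle call was lost without heart library 14, the highest in heart for Pparg (edgeR adjusted p = 0.0557), without spleen library 8, the highest in spleen for Gt(ROSA)26Sor (0.0574), and without the 5 libraries unusual for Neto2 (0.0647).

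Among neighbours in that order, small intestine exceeded kidney (0.58, SE 0.257, edgeR adjusted p = 0.0436) and liver exceeded skeletal muscle (0.62, SE 0.26, edgeR adjusted p = 0.0297). Spleen and small intestine, kidney and brain, brain and liver, and skeletal muscle and heart did not differ beyond their spread (edgeR adjusted p = 0.749, 0.357, 0.0615 and 0.222). The coding gene Thumpd3 lies on the opposite strand and overlaps Gt(ROSA)26Sor, so that part of either gene's reads may belong to the other. Thumpd3 fell in heart (-0.46, SE 0.132, edgeR adjusted p = 0.00174) and in brain (-0.48, SE 0.128, edgeR adjusted p = 0.000466).

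**Figure D3:**
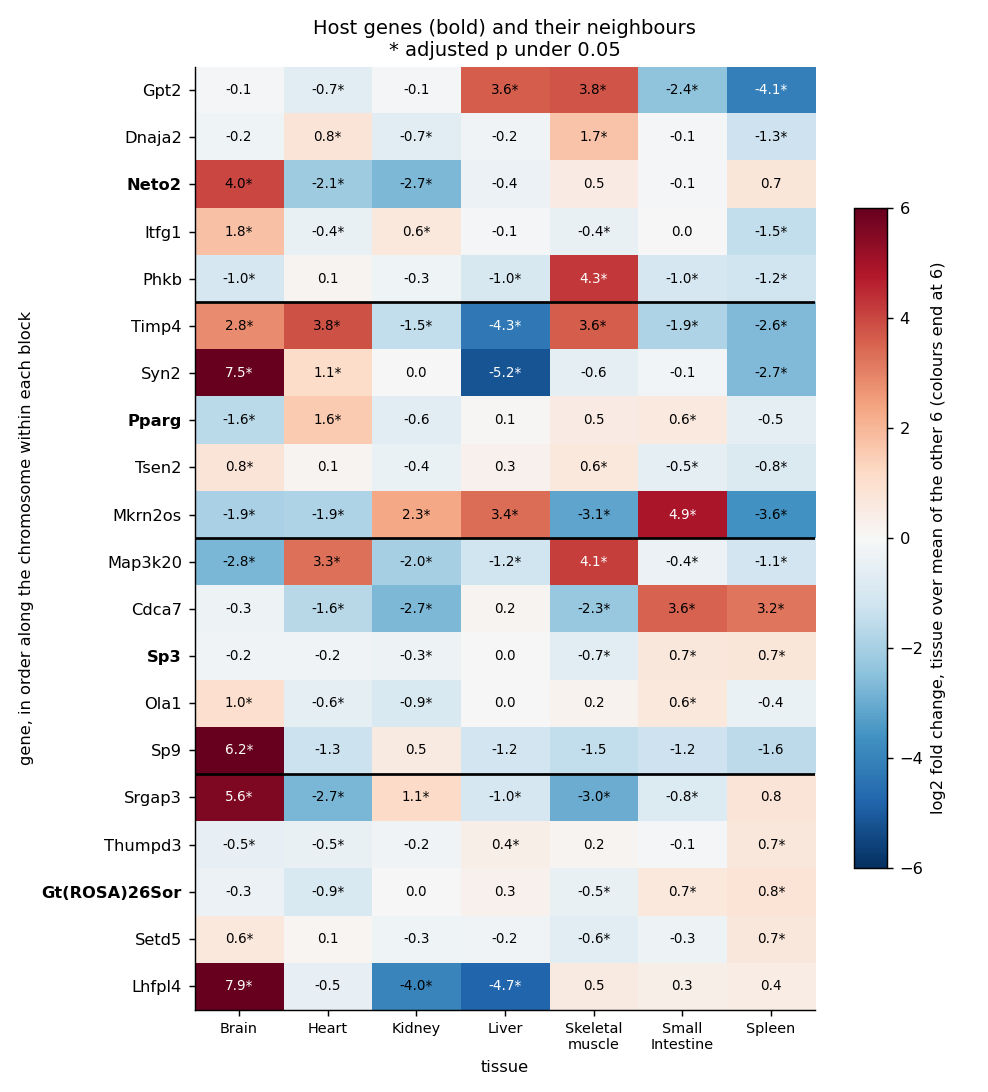
Log2 fold change of each host gene (bold) and 4 neighbouring genes in chromosome order, tissue over the mean of the other 6, with an asterisk where the edgeR adjusted p is under 0.05; columns are tissues and the colour scale ends at 6 in either direction. Neto2 at 3.99 in brain stands beside Dnaja2 at -0.24 and Itfg1 at 1.78.

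The genes next to each host gene shared its tissue profile to differing degrees. In brain, Neto2 rose by 3.99 while Dnaja2, a chaperone gene on one side, was at -0.24 (edgeR adjusted p = 0.0817) and Itfg1 on the other rose by 1.78 (SE 0.117, edgeR adjusted p = 4.98e-26). Beside Pparg, which fell in brain, Syn2, a synaptic vesicle gene, rose by 7.46 (SE 0.299, edgeR adjusted p = 1.22e-41). Over all 96 libraries, the Pearson correlation of log2(CPM + 1) with Neto2 ran from -0.087 for Gpt2 to 0.567 for Itfg1. With Pparg it ran from -0.08 for Syn2 to 0.191 for Timp4. For Sp3 the lowest was -0.386 for Map3k20, and the highest were 0.583 for Ola1 and 0.692 for Cdca7. For Gt(ROSA)26Sor the lowest was 0.137 for Lhfpl4, and the highest were 0.569 for Setd5 and 0.657 for Thumpd3. These correlations describe points that share tissue, depth and an unknown mix of genotypes.

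By the same measure over 96 libraries and 14771 genes, the genes most like each member were Pgm2l1 (r = 0.883) for Neto2, Dll4 (0.72) for Pparg, Ppp4r3b (0.917) for Sp3 and Zfp688 (0.839) for Gt(ROSA)26Sor. Once each tissue's median was taken off, they were Ddx11 (0.638), Znfx1 (0.729), Ddx3x (0.826) and Cybc1 (0.777). Among the members themselves, Sp3 and Gt(ROSA)26Sor had the highest value, 0.574, which was 0.073 with the tissue medians taken off. With them taken off, Neto2 and Gt(ROSA)26Sor had the highest value, 0.443, which was 0.354 before.

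A library was called unusual for a gene where its log2(CPM + 1) lay more than 1.5 interquartile ranges outside the quartiles of its tissue. Shares of genes unusual in a library, given below, are over expressed genes, those with a tissue median of at least 1 CPM. Of 384 member values, 15 were unusual (3.91%). Over all genes with a tissue median of at least 1 CPM the share was 4.05%, and among member values that meet that minimum it was 11 of 340 (3.24%). The number is thus near that of any gene. Pou5f1 was at 1 CPM or more in 4 of the 15, and in 35 of the 96 libraries. Neto2 had 5 unusual values, Pparg 3, Sp3 0 and Gt(ROSA)26Sor 7. With TMM factors Sp3 had 4, in skeletal muscle library 2 and small intestine libraries 6, 8 and 13, and the values of Gt(ROSA)26Sor in brain 2, skeletal muscle 2 and small intestine 8 were inside the limits. Gt(ROSA)26Sor was then below the limit in spleen 4, the spleen library with most Pou5f1 (14.3 CPM), and above it in spleen 8 (Pou5f1 0.688 CPM).

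**Figure D4:**
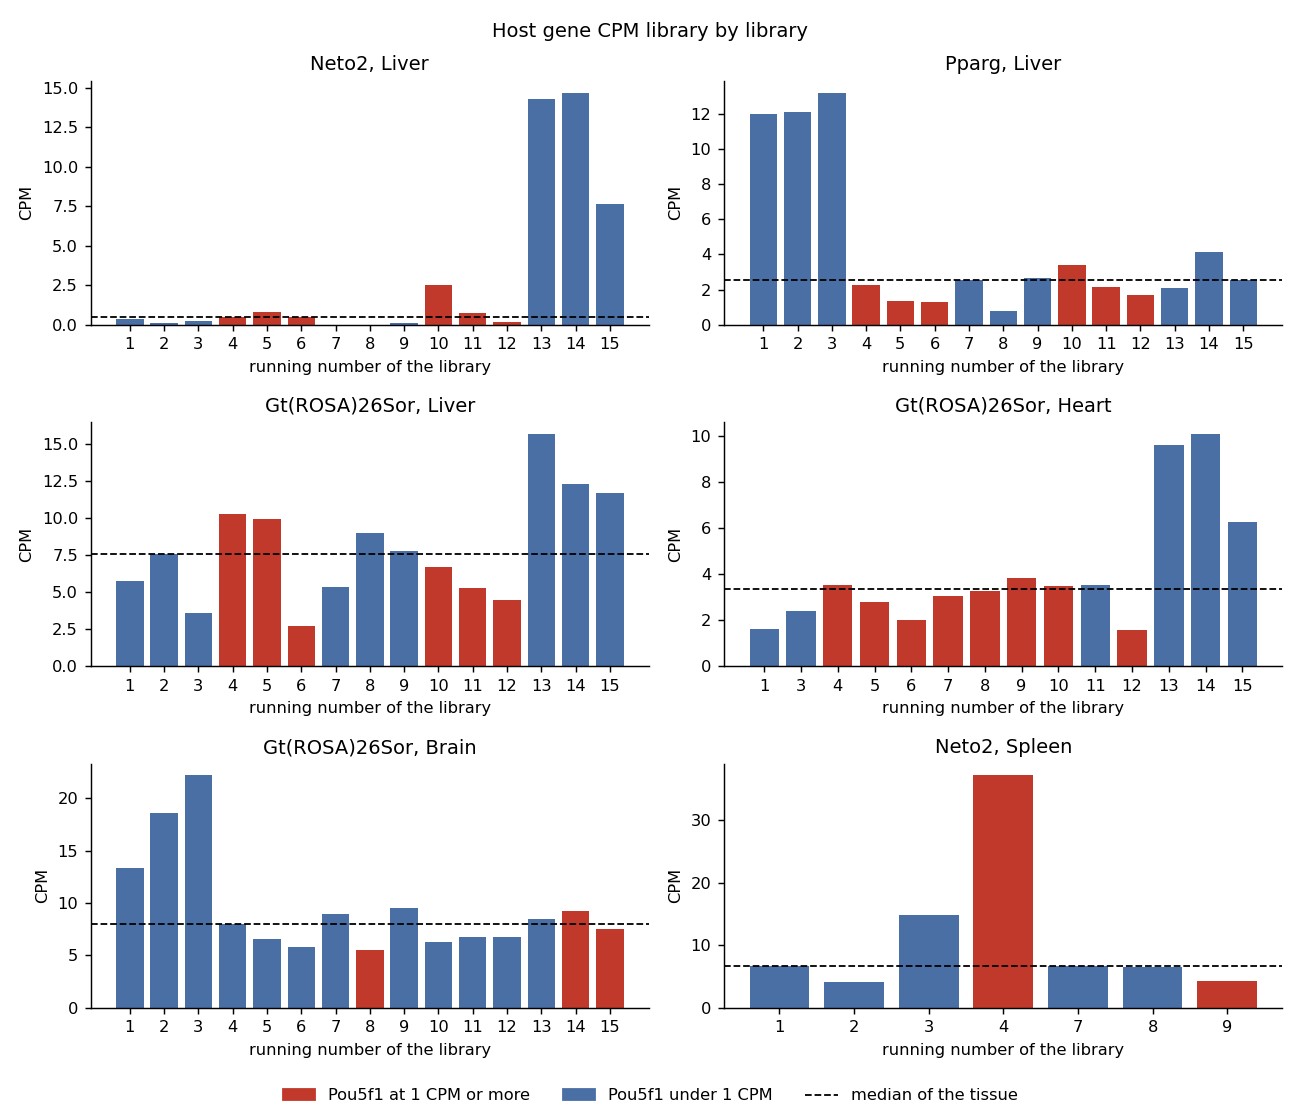
CPM of a host gene (vertical axis) in each library of a tissue, by the running number in its column name (horizontal axis); bars are red where Pou5f1 is at 1 CPM or more and blue where it is lower, and the dashed line is the tissue's median. The high bars for liver Neto2 (14.3, 14.7 and 7.65 CPM) and liver Pparg (12 to 13.2 CPM) are blue, and the highest spleen Neto2 bar (37.2 CPM) is red.

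Liver libraries 13, 14 and 15 had Neto2 at 14.3, 14.7 and 7.65 CPM (137, 121 and 69 counts), against 0 to 2.54 CPM in the other 12. Pou5f1 in the 3 was at 0.418, 0.487 and 0.222 CPM. They lie above all other liver libraries, with library 15 just over the limit of 7.34 CPM, and none of the 3 reached 1 CPM of Pou5f1. Neighbouring genes were not high: Dnaja2 was at 46.4, 69.9 and 65.2 CPM in the 3 libraries (tissue median 91.8 CPM) and Itfg1 at 22.2, 27.3 and 39.5 CPM (tissue median 39.9 CPM). Gt(ROSA)26Sor was also highest in those 3, at 15.7, 12.3 and 11.7 CPM against 2.69 to 10.3 CPM in the other 12, within the limits. Their mitochondrial shares were 33%, 22.4% and 19%, the highest in liver, and 3.27%, 0.384% and 0.344% of expressed genes were unusual in them. The part of the mitochondrial share in the Neto2 levels was not tested. With a pseudocount of 0.5 CPM library 15 was inside the limit, and at 3 interquartile ranges all 3 were.

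In the 6 liver libraries with Pou5f1 at 1 CPM or more, Neto2 was at 0.177 to 2.54 CPM, below libraries 13 to 15. These 6 took ranks 4 to 8 and 11 of 15. Libraries 1, 2, 3, 7, 8 and 9, with Pou5f1 under 1 CPM, had 0 to 0.339 CPM of Neto2. The library with the highest Pou5f1 of all, liver number 4 at 199 CPM, had Neto2 at 0.472 CPM, Pparg at 2.24 CPM, Sp3 at 23.7 CPM and Gt(ROSA)26Sor at 10.3 CPM. Of 15 liver libraries it ranked 8 for Neto2, 9 for Pparg, 9 for Sp3 and 4 for Gt(ROSA)26Sor. Liver number 10, with Pou5f1 at 63.4 CPM, had the highest Neto2 level of the 6 with Pou5f1 at 1 CPM or more, 2.54 CPM. Numbers 11 and 12, at 83.4 and 43.6 CPM of Pou5f1, had 0.718 and 0.177 CPM. No member was unusual in any liver library with Pou5f1 at 1 CPM or more.

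Liver libraries 1, 2 and 3 had Pparg at 12, 12.1 and 13.2 CPM, against 0.772 to 4.14 CPM in the other 12. Pou5f1 was 0 in all 3. Cd36, a target of PPAR gamma that takes up fatty acids, and named here after its values were seen, was highest in the same libraries, at 103, 77.9 and 146 CPM against 9.29 to 35.8 CPM in the other 12. It was the only one of the 13 listed targets above the other 12 libraries in all 3: Plin2 was at 414, 352 and 442 CPM against 112 to 1013 CPM, Angptl4 at 124, 62.4 and 80.5 CPM against 47 to 393 CPM, and Lpl at 134, 131 and 8.57 CPM against 20.6 to 115 CPM, so that library 3 was the lowest liver library for Lpl. Adipoq was 0 in all 3 and Plin1, a fat droplet gene, was at or below 0.254 CPM. The sum of the 8 adipocyte markers was 593, 466 and 1363 CPM, of which the liver-expressed gene Car3 gave 580, 454 and 1341 CPM, against 21.9 to 1302 CPM in the other 12. Unusual genes made up 2.48%, 5.05% and 1.61% of expressed genes in them. With TMM factors, only library 3 stayed outside the limit.

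Spleen library 4 had Neto2 at 37.2 CPM (409 counts), and the other 6 had 14.9 CPM in number 3 and 4.1 to 6.69 CPM in the rest. Its Pou5f1, 14.3 CPM, was the highest in spleen, against 2.4 CPM in number 9 and at or below 0.688 CPM in the other 5. In number 9, Neto2 was 4.34 CPM. In library 4, Sox2, Klf4 and Myc were at 19.6, 61.1 and 137 CPM, and Gt(ROSA)26Sor at 16.9 CPM was the lowest in spleen. In that library 8.46% of expressed genes were unusual. The summed level of 4 macrophage markers in it was the highest in spleen, 1146 CPM, where the lowest sum was 263 CPM and the median 762 CPM. Of the 4, Csf1r and Cd68 were highest there (570 and 114 CPM), while C1qa was at 447 CPM against 471 CPM in library 2, and Adgre1 was at 14.9 CPM against 3.1 to 68.7 CPM in the other 6. The part of cell makeup was not tested.

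In kidney, library 13 had Neto2 at 6.09 CPM (66 counts) against 0 to 1.84 CPM in the other 14. Libraries 14 and 15 came next, at 1.84 and 1.51 CPM, with Pou5f1 at 0 in both. The mitochondrial shares of libraries 13, 14 and 15 were 29.8%, 20.3% and 45.5%. Pou5f1 in library 13 was 2.31 CPM, whereas kidney library 4, with the highest kidney Pou5f1 of 18.5 CPM, had Neto2 at 0.96 CPM. Library 13 also had the highest Pparg in kidney, 10.8 CPM. In that library 0.848% of expressed genes were unusual. Its Neto2 level is 1 of 2 member values that stayed unusual with a limit of 3 interquartile ranges. The other is the 0 of Gt(ROSA)26Sor in small intestine number 6. In skeletal muscle, libraries 13, 14 and 15 ranked 1, 3 and 4 for Neto2 at 7.2, 6.49 and 6.15 CPM, within the limits. Pou5f1 there was 0.966, 2.03 and 0.865 CPM. Whether a running number marks the same animal in different tissues is not given.

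Gt(ROSA)26Sor was high in several libraries without Pou5f1. Brain libraries 1, 2 and 3 were at 13.4, 18.6 and 22.2 CPM, against 5.53 to 9.54 CPM in the other 12, and the first of these lay inside the limit of 15.5 CPM. Pou5f1 was 0 in all 3. Thumpd3, the overlapping gene, was at 30.7, 35.7 and 35.1 CPM against 12.6 to 18.1 CPM, and Setd5 on the other side was at 53.4, 60.3 and 69.7 CPM with a tissue median of 101 CPM. These libraries stand apart in general, since 12.5%, 19.3% and 18.6% of expressed genes were unusual in them. With the 7 libraries unusual for Gt(ROSA)26Sor left out, the brain value was -0.60, against -0.33 with them (edgeR adjusted p = 0.132). The liver value was 0.41, against 0.27 with them (edgeR adjusted p = 0.236). Those libraries were left out because of their own Gt(ROSA)26Sor levels, so the changed values are no test.

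Heart libraries 13, 14 and 15 had Gt(ROSA)26Sor at 9.62, 10.1 and 6.26 CPM, against 1.58 to 3.82 CPM in the other 11, and the last of these lay inside the limit of 6.47 CPM. Pou5f1 was 0 in all 3. Thumpd3 was not high there, at 6.94, 8.71 and 11.8 CPM (tissue median 11.9 CPM). Setd5 on the other side was at 60.4, 69.5 and 42.2 CPM against 10.7 to 49.5 CPM in the other 11, so libraries 13 and 14 were its highest in heart. Of expressed genes, 16.4% and 17.2% were unusual in libraries 13 and 14, whose mitochondrial shares of 40.2% and 38.6% were the highest in heart. In heart library 1, with Gt(ROSA)26Sor at 1.61 CPM, 16.6% were unusual. Among the 8 heart libraries with Pou5f1 at 1 CPM or more, Gt(ROSA)26Sor lay between 1.58 and 3.82 CPM. In skeletal muscle, library 2 was at 6.44 CPM against 2.17 to 4.91 CPM in the other 14, with a Pou5f1 level of 0.

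Small intestine held both low values of Gt(ROSA)26Sor. Library 6 had 0 counts of it and of Neto2 and Pparg, with a Pou5f1 level of 2.93 CPM. It was the library with the mitochondrial share of 78.8%, and 49.5% of expressed genes were unusual in it. Library 8 had 3.18 CPM with Pou5f1 at 19.5 CPM and a mitochondrial share of 39.2%. The remaining libraries ran from 5.93 to 25.6 CPM, and number 7 with the highest level had a Pou5f1 level of 5.82 CPM. Low and high values of Gt(ROSA)26Sor thus both occurred with Pou5f1 in this tissue.

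Below the limit for unusual values, Neto2 and Pou5f1 came together in small intestine. The 8 libraries with Pou5f1 at 1 CPM or more took ranks 1 to 7 and 15 of 15 for Neto2, the last being library 6. Library 12, with Pou5f1 at 139 CPM, had the highest Neto2 level, 11.4 CPM, and libraries 11 and 10, at 122 and 75.5 CPM of Pou5f1, had 8.61 and 9.44 CPM. Library 7 had 8.89 CPM of Neto2 with only 5.82 CPM of Pou5f1. The 7 libraries below 1 CPM of Pou5f1 ran from 0.551 to 3.83 CPM. The 3 libraries with most Pou5f1 also had the lowest mitochondrial shares of the tissue (4.71%, 4.32% and 4.46%), and the highest Dnaja2 levels (247, 223 and 179 CPM), so Neto2 did not stand alone there. Heart showed the reverse order, but at low counts. Its 8 libraries with Pou5f1 at 1 CPM or more took rank 5 and ranks 8 to 14 of 14 for Neto2. They held 0.0932 to 1.36 CPM (1 to 18 counts), against 0.879 to 2.32 CPM in the heart libraries under 1 CPM of Pou5f1. These ranks are descriptions of libraries of unknown genotype and carry no test.

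**Figure D5:**
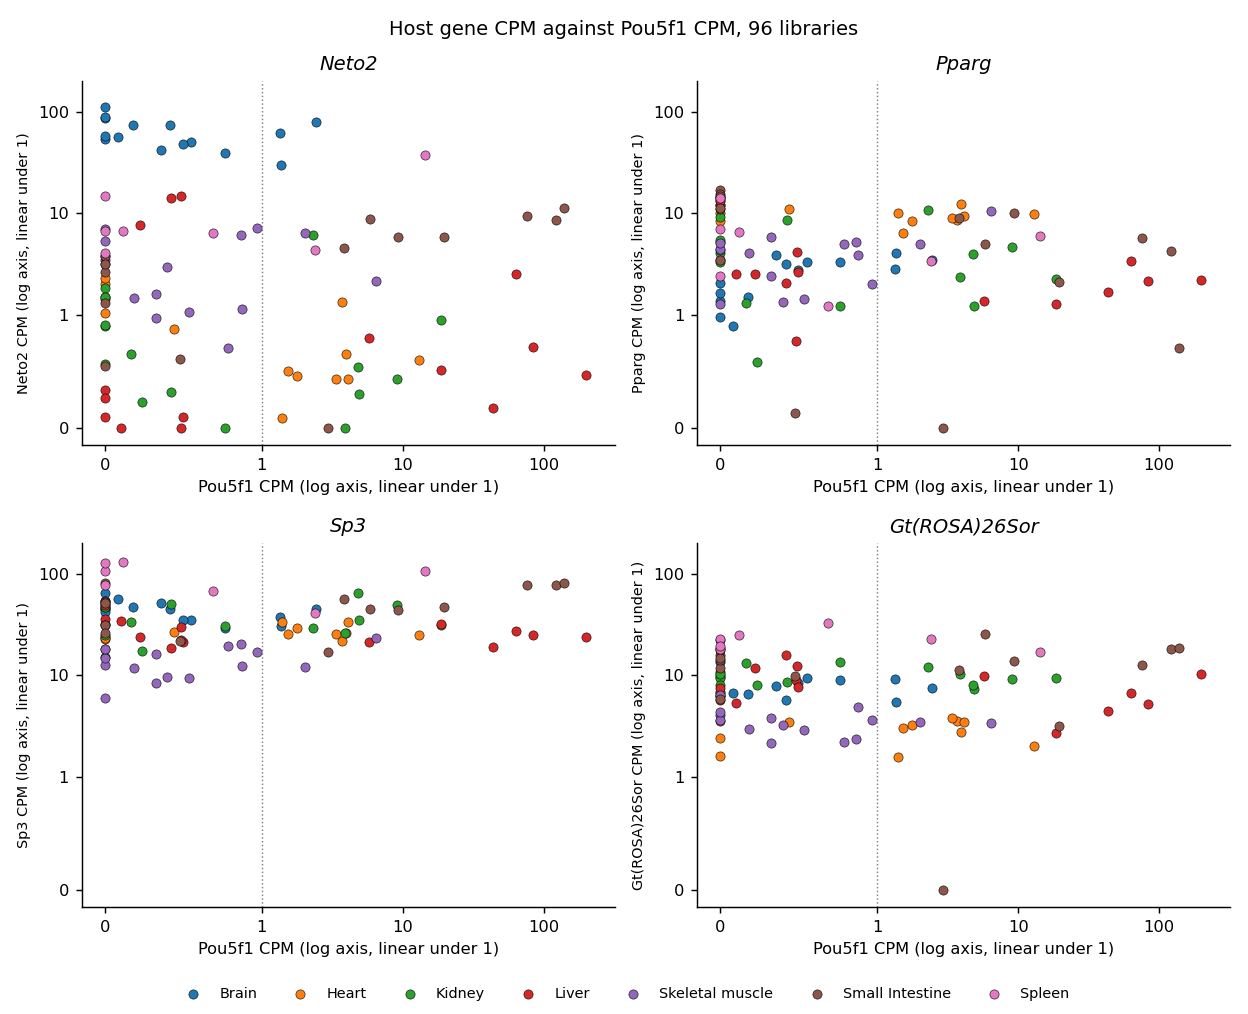
CPM of each host gene (vertical axis) against Pou5f1 CPM (horizontal axis), both logarithmic above 1 and linear below, with a point per library coloured by tissue and a dotted line at 1 CPM of Pou5f1. The 3 liver points at 7.65 to 14.7 CPM of Neto2 lie left of the line, spleen library 4 (37.2 CPM of Neto2, 14.3 CPM of Pou5f1) lies right of it, and Sp3 stays at 5.99 CPM or more in every library.

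Pparg and Sp3 showed no unusual value in a library with Pou5f1 at 1 CPM or more on library totals. In other settings, Sp3 was above the limit in small intestine 6 and 8 with TMM factors, and Pparg was below it in small intestine 6 without mitochondrially encoded genes. In skeletal muscle, library 12 had the most Pou5f1, 6.45 CPM, and the highest Pparg (10.6 CPM against 1.29 to 5.87 CPM in the other 14) and Sp3 (23.2 CPM against 5.99 to 20.5 CPM), both within the limits. In small intestine, library 12 was highest for Sp3 at 81.1 CPM, ahead of libraries 2 (80.9 CPM, Pou5f1 0), 10 (76.8 CPM) and 11 (76.5 CPM). The same library was low for Pparg, at 0.713 CPM, which ranked 13 of 15, and the 5 highest Pparg levels in that tissue, 11 to 16.9 CPM, were in libraries with a Pou5f1 count of 0. Sp3 had the smallest spread of the 4 members in 4 of 7 tissues, and Gt(ROSA)26Sor in the other 3. The distance between the 10th and 90th percentile of Sp3 was 0.57 on the log2 scale in heart, where 14.2% of genes spread less, and 0.73 in brain, where 27.5% did. In kidney and spleen it was 1.34 and 1.2, where 68.1% and 60.7% of genes spread less. In liver, skeletal muscle and small intestine that share was 16.3%, 19.8% and 14%.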

How the data were processed

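Total RNA from frozen mouse tissue was sequenced as cDNA libraries, per the labels' protocols. The values, deposited by the authors for 96 libraries, were read as estimated counts, since 26.8% of those above 0 are not whole within 1e-06. The submitters' processing notes name GRCm39 and DESeq2; aligner, counter, annotation and use of strand are not given in the sources used. CPM was each count over its library's total, times 1000000. Totals of 6624474 to 17882603 put 3 counts at 0.168 to 0.453 CPM.

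Libraries were grouped by the tissue code in their column names. Estimated counts were rounded to whole numbers and tested with edgeR 4.0.16 (R 4.3.3, quasi-likelihood test, TMM factors, low-count filter, Benjamini-Hochberg adjustment over all genes); standard errors come from the fold change and its F statistic. DESeq2 1.42.0 was an alternative. On simulated data over 18665 genes for liver against the other 6 tissues, the edgeR test recovered 99.1% of genes changed by 1 on the log2 scale. It recovered 100.0% of those changed by 2, with 2.93% false among the calls. The simulation gave all tissues the same mean levels, apart from the genes changed in liver, and all genes the same spread setting. These rates therefore need not hold for the real libraries, where most genes differed between tissues. Unusual values were sought with a pseudocount of 1 CPM and a limit of 1.5 interquartile ranges. Likeness used genes with a median of at least 5 CPM in some tissue, and named the 5 with the highest correlation, of which the first is given. Tables were made with Python 3.11.15, numpy 2.4.6 and pandas 2.3.3, and figures with matplotlib 3.10.9.

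Neighbouring genes were taken from RefSeq annotation and start regions from RefSeq in GRCm38.p6, an earlier build than the counts, matched by symbol for 3 of 4 members. The text names the 4 members, Pou5f1, the genes next to the members, and listed partners, targets and markers. Members, lists and tests were chosen with earlier results of these data known. No strain comparison was made, because no column carries a genotype. Sexes and litters are not analysed here.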

Additional observations from a re-analysis of the deposited data

Results flagged for a closer look

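The highest of the 7 spleen values stood apart from the rest for Neto2 and for Pou5f1, both in library 4. Neto2 was at 37.2 CPM there, against 14.9 CPM for the next library, a gap of 0.674 of the whole range. Pou5f1 was at 14.3 CPM there, against 2.4 CPM for the next, a gap of 0.832 of the range. The limit for 7 samples (Dixon) is 0.568. In groups drawn from a single normal distribution, chance gives about 1 such value in 20 groups. Here 10 values were examined: the highest and the lowest library for the 4 members and Pou5f1. The spleen libraries mix 4FsA, 4Fj and WT, and Pou5f1 was 0 in libraries 2, 3 and 7, so that rate need not hold. Both values that passed lie in the same library, so they are not separate results. Groups of more than 10 libraries were not examined in this way.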

How the results depend on the processing

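The number of the 28 comparisons that passed was 14, and 12 to 17 over the other settings; for the 84 tissue pairs it was 50, and 47 to 53. Unusual values numbered 15 (14 to 16 over 4 settings), with 10 shared under TMM factors and 13 shared without mitochondrially encoded genes, but 2 at 3 interquartile ranges. Those in libraries with Pou5f1 at 1 CPM or more numbered 4, with 2 at a level of 5 CPM (17 libraries) and 7 at a count of 1 (65 libraries). Leaving out the libraries over 50% mitochondrially encoded gave 15, 14 of them shared. That setting, for unusual values, and the fits without libraries unusual for a member were chosen after seeing the data. Those fits give no test of the member whose levels chose the libraries.

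Small values changed sign. Gt(ROSA)26Sor in kidney (-0.02) became 0.032 with no filter, 0.051 without mitochondrially encoded genes, 0.01 without the libraries over 50%, 0.013 without the highest Neto2 library, 0.002 without the highest Pparg library, and 0.092 without the libraries unusual for it. Neto2 in small intestine (-0.06) became 0.112, 0.023 and 0.117 under the first 3 of these, 0.57 without the libraries unusual for Neto2 and 0.002 without those unusual for Gt(ROSA)26Sor. Without the libraries unusual for Pparg, Pparg in liver (0.07) became -0.78 and Sp3 in liver (0.03) became -0.12. The cause was not tested. Scaling moved the median of all genes by over 0.1 in brain, which was 0.08 with DESeq2 size factors and -0.14 without mitochondrially encoded genes, against -0.03, and in small intestine, which was -0.19 with DESeq2 size factors, against -0.08.

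No paired analysis was possible because the columns carry neither genotype nor a replicate number from the labels. Genotype, sex and animal are unknown per library, so tissue differences and unusual values cannot be assigned to a strain, and Neto2 in heart, kidney and liver rests on few counts in most libraries.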
